A study of Mus musculus with 93 samples.

Results

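Caprin2, Casp6, Prkd2, Nsun4 and Nbeal1 are 5 genes whose liver RNA level differed between alleles of the huntingtin gene Htt with different CAG repeat lengths in mice of 6 months. They are 5 of the 39179 genes in the deposited tables, found by their Ensembl identifiers, and all 5 passed the filter on low counts that left 16126 genes to test. Caprin2 and Casp6 were chosen by the linear change along the 4 CAG lengths at 6 months, and Prkd2, Nsun4 and Nbeal1 were chosen by the difference between Q140 and Q20 at that age. Those 6-month differences are therefore given as a description, with no test. The question taken up here is whether the differences are seen again at 10 months, in libraries that had no part in the choice, and whether they are seen against wild types.

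RNA was sequenced from the liver of C57BL/6 mice of both sexes at 6 and 10 months. The knock-in animals were heterozygous, with 1 copy of Htt carrying 20, 50, 92 or 140 CAG repeats, and are called here by the repeat length (Q20 to Q140). Controls were wild-type littermates that shared a cage type, by their label, with either Q20 or Q50 mice. No wild types were labelled as housed with Q92 or Q140. The 93 libraries form 24 groups by genotype or housing, sex and age, of which 21 hold 4 libraries and 3 hold 3 (Q20, Q92 and Q140 males at 10 months). The labels do not state that each replicate is a separate mouse, so a p-value here speaks only of how far libraries of a group lie apart, which may be technical. Every sample is whole liver, in which fewer cells of a type and less RNA per cell cannot be told apart.

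The members do different work in the cell. Caprin2 is an RNA-binding protein of the caprin family that has also been linked to Wnt receptor signalling. Casp6 is a caspase, a protein-cutting enzyme of programmed cell death, and huntingtin is among its known substrates. Prkd2 is a protein kinase of the D family, which is activated by diacylglycerol and protein kinase C. Nsun4 methylates the small ribosomal RNA of the mitochondrion and, with Mterf4, takes part in building the mitochondrial ribosome. Nbeal1 belongs to the BEACH domain family of membrane trafficking proteins and has been linked, in human cells, to the cholesterol regulator SREBP2.

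The members lie on 5 different chromosomes and all are protein coding. In the GENCODE annotation of GRCm38, Caprin2 (ENSMUSG00000030309) occupies chr6:148842492-148896237 on the minus strand and Casp6 (ENSMUSG00000027997) chr3:129901425-129914103 on the plus strand. Prkd2 (ENSMUSG00000041187) occupies chr7:16842902-16870464 on the plus strand. Nsun4 (ENSMUSG00000028706) occupies chr4:116032842-116053876 on the minus strand and Nbeal1 (ENSMUSG00000073664) chr1:60180599-60338328 on the plus strand. The processed pseudogene Gm29332 shares 227 exon bases with Nbeal1 on the opposite strand. It had no row in the deposited tables, so reads of the pair cannot be told apart. No other member shares exon bases with another annotated gene.

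Every member's start site has an upstream window in the RefSeq promoter table (GRCm38.p6), which holds 7 windows for the 5 genes. The 250 bases before the start are shown for Caprin2 and Casp6, the members with the steepest 6-month change, 5′ to 3′ on the strand of the gene. They lie at chr6:148896238-148896487 (minus) and chr3:129901165-129901414 (plus), and capitals mark matches to the GC box.
Caprin2: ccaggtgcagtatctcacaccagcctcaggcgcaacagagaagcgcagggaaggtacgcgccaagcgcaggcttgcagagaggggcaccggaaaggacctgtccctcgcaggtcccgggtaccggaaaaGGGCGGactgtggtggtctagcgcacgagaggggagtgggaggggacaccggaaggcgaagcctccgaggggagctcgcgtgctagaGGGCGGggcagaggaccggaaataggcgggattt
Casp6: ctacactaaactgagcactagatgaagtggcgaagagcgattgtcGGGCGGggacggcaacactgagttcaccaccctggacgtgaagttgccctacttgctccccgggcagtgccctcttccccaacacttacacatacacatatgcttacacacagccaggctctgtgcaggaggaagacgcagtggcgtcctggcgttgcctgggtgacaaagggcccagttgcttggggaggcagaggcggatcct

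The GC box (GGGCGG, searched on both strands) was in all 7 windows of the members and in 32.7% of the 32851 windows in the table. The Prkd2 windows overlap and share a GC box, so the 7 are not separate sequences. The GC content of the members' windows ran from 53.2% to 73.2%, above the 52.4% median of all windows. The TATA box (TATAAA), the E-box (CACGTG) and the cyclic AMP element (TGACGTCA) were in none of the 7, against 12.4%, 6.02% and 1.55% of all windows. The CCAAT letters were in 1 Prkd2 window (33.8% of all) and the STAT element TTCNNNGAA in 1 Nsun4 window (7.02% of all). These are matches of letters in a fixed window and say nothing of binding.

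Levels per library are CPM (counts scaled to the library total, with TMM factors) and levels between genes are in FPKM, which accounts for length. Over the 93 libraries Casp6 had the highest mean level, 17.7 ± 6.21 FPKM (SD), followed by Nsun4 with 7.64 ± 0.828 FPKM. Prkd2 (1.98 ± 0.441 FPKM), Nbeal1 (1.86 ± 0.208 FPKM) and Caprin2 (1.03 ± 0.584 FPKM) were low. Caprin2 varied most in relation to its mean, from 0.791 to 6.30 CPM, and Nbeal1 least, from 20.3 to 37.3 CPM.

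Total counts ran from 28752184 to 46776898 per library. The summed level of 6 hepatocyte markers was at least 62880 CPM in every library, against at most 530.4 CPM for each of the 10 lists of other cell types. By a limit set after seeing the values, 5 libraries stand apart, with brain markers summing to at least 40 CPM or a mitochondrial share of at least 15%: 1 Q140 female and 1 wild-type male at 10 months, and 1 male each of Q140, Q20 and Q92 at 6 months. Abhd1 separates knock-in from wild-type libraries, with at most 3.57 CPM in wild types and at least 17.3 CPM in all knock-in libraries but 1. The exception, the library labelled Q50 female replicate 1 at 6 months, had 2.39 CPM and goes against its label. Without it the 6-month change from CAG 20 to 140 was 0.71 for Caprin2, 0.44 for Casp6, 0.34 for Prkd2, -0.33 for Nsun4 and -0.23 for Nbeal1 on the log2 scale, against 0.72, 0.45, 0.33, -0.32 and -0.23 with it. Htt itself was lower with longer repeats at 10 months (-0.49 ± 0.10 in log2 from CAG 20 to 140, adjusted p = 0.0186 by edgeR). In that contrast edgeR called no gene, Htt included, without the libraries that lack an index in their label or without some single libraries. At 6 months the Htt change was -0.33 ± 0.09 and did not pass (adjusted p = 0.115 by edgeR).

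Caprin2 had the steepest 6-month difference. The 4 Q20 females had 3.22, 3.05, 2.19 and 4.86 CPM and the 4 Q140 females 4.68, 6.01, 4.45 and 6.09 CPM. The 4 Q20 males had 1.32, 0.791, 1.45 and 1.56 CPM and the 4 Q140 males 1.97, 2.27, 1.36 and 2.35 CPM. Of the Q140 libraries, 2 of 4 females and 3 of 4 males lay above every Q20 library of their sex. The order of the means followed the repeat length in part: Q50 (3.38 CPM in females, 1.25 CPM in males) was at the Q20 level (3.33 and 1.28 CPM), Q92 was above it (4.73 and 1.62 CPM) and Q140 highest (5.31 and 1.99 CPM). The fitted change from CAG 20 to 140 was 0.72 ± 0.15 (log2, SE), and 0.35 on the log2(FPKM + 1) scale, which understates the change of low genes.

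At 10 months that order was not seen for Caprin2. The 4 Q20 females had 5.53, 4.04, 5.02 and 6.09 CPM and the 4 Q140 females 3.90, 3.69, 6.06 and 4.48 CPM, with 2 of the Q140 libraries below all Q20 libraries. The 3 Q20 males had 1.62, 1.096 and 1.55 CPM and the 3 Q140 males 1.76, 1.41 and 1.63 CPM. The change along CAG length was 0.07 ± 0.17 (95% interval -0.26 to 0.41, adjusted p = 0.92). The 10-month minus the 6-month value was -0.65 ± 0.23, which carries no test because it holds the libraries of the choice.

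At 6 months the Q140 mean of Casp6 lay above the Q20 mean in both sexes, with the larger step in males. The 4 Q20 males had 14.6, 21.3, 20.4 and 19.0 CPM and the 4 Q140 males 19.7, 30.3, 28.6 and 30.6 CPM. The Q20 females had 24.5, 24.05, 26.3 and 29.1 CPM and the Q140 females 34.2, 26.6, 26.3 and 38.4 CPM. So 3 of the 4 Q140 males and 2 of the 4 Q140 females lay above every Q20 library of their sex. The means of Q20, Q50, Q92 and Q140 were 25.97, 28.85, 33.98 and 31.4 CPM in females and 18.82, 16.52, 20.26 and 27.3 CPM in males. The order thus differed between the sexes, with Q92 highest in females and Q50 lowest in males. Over both sexes the fitted change along CAG length was 0.45 ± 0.10, and the fitted difference from Q20 was -0.02 ± 0.10 for Q50 and 0.25 ± 0.10 for Q92.

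At 10 months the 3 Q140 males had 15.2, 15.1 and 16.7 CPM of Casp6, inside the 12.2 to 19.2 CPM of the Q20 males. The Q140 females had 32.9, 40.02, 30.6 and 41.1 CPM and the Q20 females 29.9, 32.9, 33.4 and 31.1 CPM, which overlap. The change along CAG length was 0.06 ± 0.10 (95% interval -0.14 to 0.27, adjusted p = 0.87), which differed from the 6-month value by -0.39 ± 0.14.

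**Figure D1:**
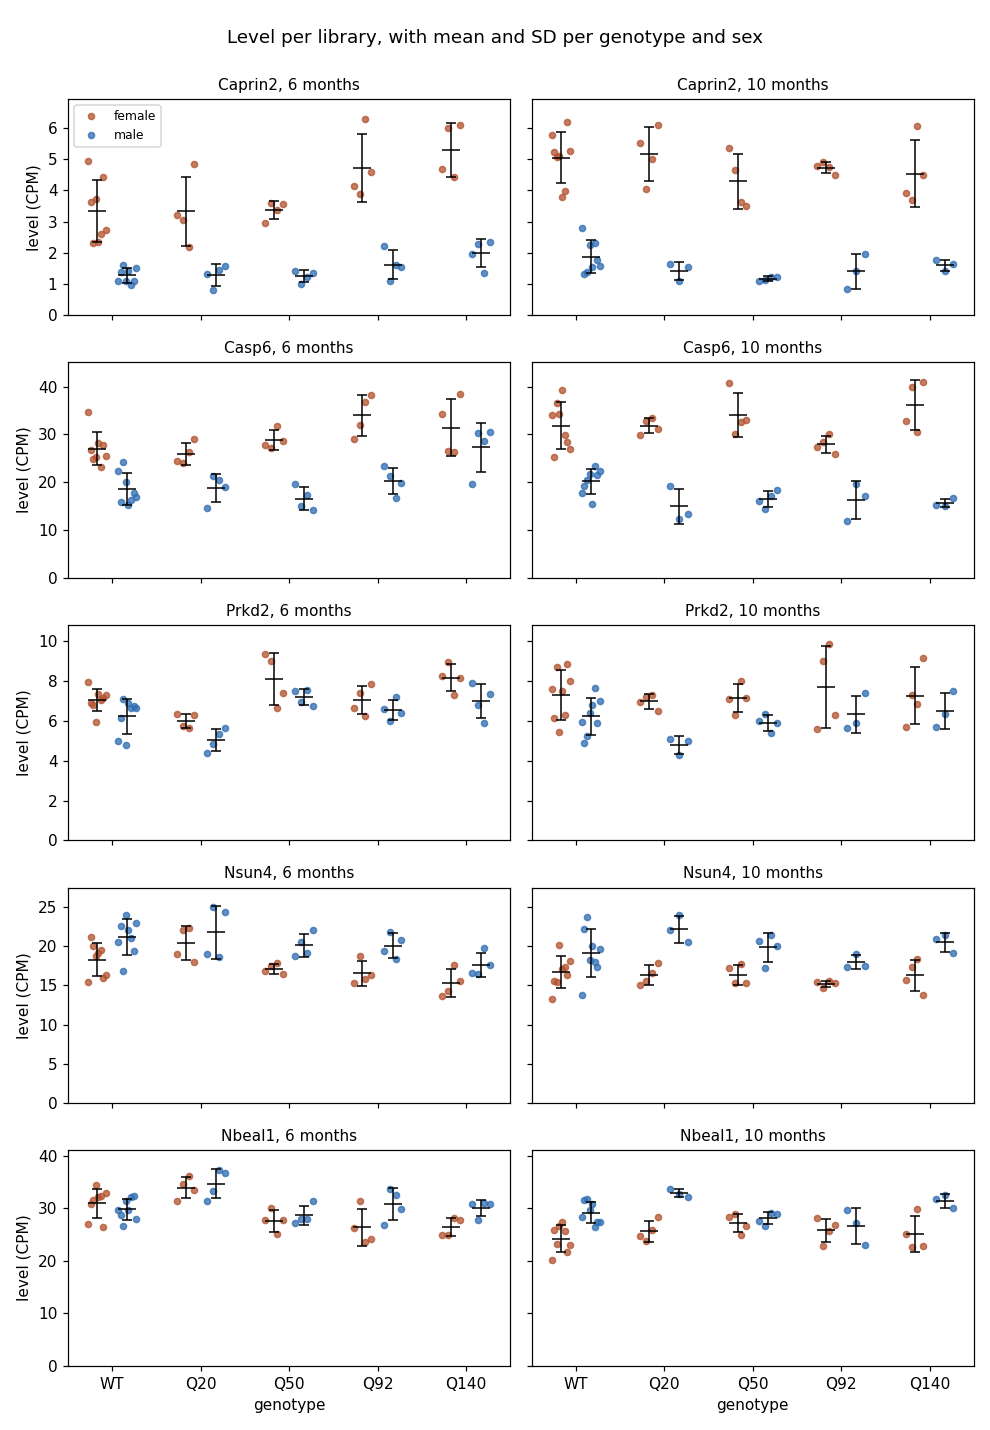
Level of each gene (CPM, vertical axis from 0) in every library, by genotype (horizontal axis), age (columns) and sex (colour), with the mean and SD of each set as black bars. In the Caprin2 panels females lie above males in every genotype. Wild-type females at 10 months have 3.78 to 6.20 CPM. At 6 months the ranges of Q140 (4.45 to 6.09 CPM) and Q92 females (3.88 to 6.30 CPM) overlap that range. So do those of Q20 (2.19 to 4.86 CPM) and wild-type females (2.31 to 4.94 CPM) at 6 months, while that of Q50 females (2.95 to 3.60 CPM) does not.

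Prkd2 had a different 6-month pattern, with Q20 low and the means of the other 3 alleles all above it. The Q20 females had 6.34, 5.72, 5.64 and 6.27 CPM and the Q20 males 4.40, 4.83, 5.32 and 5.65 CPM. The Q140 females had 8.24, 8.94, 7.31 and 8.15 CPM and the Q140 males 7.91, 6.80, 5.88 and 7.32 CPM, above Q20 in each sex with no overlap. The Q50 libraries were as high as Q140: females had 9.32, 9.01, 6.64 and 7.36 CPM and males 7.49, 6.96, 7.53 and 6.75 CPM, so that all 8 lay above all 8 Q20 libraries. Among these 8 is the library that goes against its label, and without it Q50 exceeded Q20 by 0.42 ± 0.10 for Prkd2. The difference from Q20 was 0.47 ± 0.09 for Q50, 0.30 ± 0.09 for Q92 and 0.46 ± 0.09 for Q140 in log2. Wild types housed with Q20 had 6.31 ± 1.08 CPM and those housed with Q50 6.96 ± 0.285 CPM, between Q20 (5.52 ± 0.663 CPM) and Q140 (7.57 ± 0.952 CPM).

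Of the members, Prkd2 had the largest 10-month change, which did not pass the test. Its change along CAG length was 0.24 ± 0.10 (95% interval 0.05 to 0.43, unadjusted p = 0.0154, adjusted p = 0.31), against 0.33 ± 0.09 at 6 months. The 3 Q20 males at 10 months had 5.09, 4.28 and 5.01 CPM, below the Q50 males (5.96, 6.34, 5.36 and 5.87 CPM), the Q92 males (5.65, 5.90 and 7.39 CPM) and the Q140 males (5.69, 6.31 and 7.47 CPM) with no overlap. Females overlapped: Q20 had 6.95, 7.18, 7.29 and 6.47 CPM and Q140 had 5.71, 7.30, 6.84 and 9.16 CPM. The comparisons in males all share the 3 Q20 libraries. What share of all genes separates in this way was not computed at either age, for Prkd2 or for the other members. Without the 5 libraries that stand apart the change was 0.30 ± 0.10 (adjusted p = 0.12), and without the 16 libraries that lack an index in their label it was 0.17 ± 0.10 (adjusted p = 0.78).

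Nsun4 was lowest in Q140 and highest in Q20 at 6 months. The Q20 females had 19.0, 22.0, 22.3 and 18.0 CPM and the Q140 females 13.6, 14.2, 17.6 and 15.5 CPM, with no overlap. The Q20 males had 19.0, 24.9, 18.6 and 24.3 CPM and the Q140 males 16.5, 16.5, 19.7 and 17.6 CPM, with 3 of 4 Q140 males below all Q20 males. Q50 (-0.18 ± 0.08) and Q92 (-0.21 ± 0.08) lay between, and the change along CAG length was -0.32 ± 0.07. At 10 months it was -0.08 ± 0.08 (95% interval -0.23 to 0.08, adjusted p = 0.77), and the female ranges of Q20 (15.05 to 17.9 CPM) and Q140 (13.7 to 18.3 CPM) overlapped. On the FPKM scale the 10-month value was 0.01, of the opposite sign.

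For Nbeal1, too, Q20 stood to one side of the other 3 alleles at 6 months, here with the highest mean. The Q20 females had 31.4, 34.7, 36.2 and 33.5 CPM and the Q20 males 31.4, 33.4, 37.3 and 36.8 CPM. All 8 Q140 libraries (24.996 to 30.9 CPM) and all 8 Q50 libraries (25.03 to 31.36 CPM) lay below all 8 Q20 libraries, of which the lowest had 31.37 CPM. These Q140 and Q20 libraries chose Nbeal1, and the share of all genes that separate in this way was not computed. The difference from Q20 was -0.29 ± 0.06 for Q50, -0.27 ± 0.06 for Q92 and -0.28 ± 0.06 for Q140, with no gradation among the 3. Without the Q50 library that goes against its label the Q50 value was -0.30 ± 0.07 for Nbeal1. Wild types of Q20 housing had 30.1 ± 2.57 CPM and those of Q50 housing 30.8 ± 2.37 CPM, against 34.4 ± 2.33 CPM in Q20. At 10 months the change along CAG length was -0.06 ± 0.06 (95% interval -0.18 to 0.07, adjusted p = 0.80), with the opposite sign on the FPKM scale (0.04). The Q20 level was then 28.8 ± 4.14 CPM and the Q140 level 27.8 ± 4.21 CPM.

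In the order of the levels over the 4 alleles and the 2 sets of wild types at each age, neighbours differed by less than the larger of their SDs, with 1 exception. That exception was Nbeal1 at 6 months, in which Q20 exceeded the next level by 1.51 times the larger SD. For every member these SDs were taken over both sexes and include the difference between them. For Nbeal1 in Q20 at 10 months the SD was 4.14 CPM over both sexes, 2.02 CPM in females and 0.728 CPM in males.

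The choosing contrasts left few genes. The linear change at 6 months called 4 genes (0.0248% of those tested) and Q140 against Q20 called 9 (0.0558%). Casp6 stood just inside the limit of the linear change (adjusted p = 0.0439) and Trim12c (0.54 ± 0.12) and Dnajc18 (-0.42 ± 0.09) just outside (adjusted p = 0.0536 each). Nbeal1 stood just inside the limit for Q140 against Q20 (adjusted p = 0.0416), with Ubqln4 (-0.33 ± 0.07, adjusted p = 0.0544) and Pi4k2b (-0.40 ± 0.09, adjusted p = 0.0612) just outside. By the other contrast, Prkd2, Nsun4 and Nbeal1 had 6-month linear changes of 0.33 ± 0.09, -0.32 ± 0.07 and -0.23 ± 0.06.

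At 10 months no member was called in the linear change, in which edgeR's quasi-likelihood test called 53 genes (0.329% of those tested). Before adjustment p was under 0.05 for 1821 genes and 1 member, Prkd2, and DESeq2, with 120 genes called, called none of the 5. Q140 against Q20 called 71 genes (0.44%) and again no member, with 0.25 ± 0.10 for Prkd2 (unadjusted p = 0.0191, adjusted p = 0.30) and 0.13 ± 0.11 for Casp6. The other members differed by -0.01 ± 0.18 (Caprin2), -0.06 ± 0.09 (Nsun4) and -0.05 ± 0.07 (Nbeal1), of which Caprin2 changed sign under several alternatives and Nsun4 and Nbeal1 on the FPKM scale.

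Q92 against Q20 called more genes at 10 months, 419 (2.6%), also with no member among them. An unadjusted p under 0.05 was reached by 3000 of the 16126 genes in that contrast and by 3 members: Prkd2 (0.27 ± 0.10, adjusted p = 0.13), Nsun4 (-0.20 ± 0.09, adjusted p = 0.18) and Nbeal1 (-0.15 ± 0.07, adjusted p = 0.22). Each has the sign of its 6-month difference. Among males of 10 months the 3 Q92 libraries had 17.4, 19.01 and 17.4 CPM of Nsun4, below the Q20 males at 22.04, 23.9 and 20.4 CPM. For Nbeal1 the Q92 males (29.8, 27.2 and 22.9 CPM) and the Q50 males (27.7, 26.7, 29.2 and 28.9 CPM) lay below the Q20 males (33.7, 32.7 and 32.3 CPM), while the Q140 males (30.003 to 32.52 CPM) overlapped them. In females the Nbeal1 mean of Q92 (25.83 CPM) was not below that of Q20 (25.66 CPM). The 3 Q20 males also lay above all 8 wild-type males in Nbeal1, while 1 of 4 Q20 females lay above all 8 wild-type females. What share of all genes separates in these ways was not computed. Caprin2 (-0.07 ± 0.18) and Casp6 (-0.03 ± 0.11) were near 0. Of 7 stellate cell markers 3 were called higher in Q92 than in Q20 (summed level 154.2 to 329.1 CPM against 125.8 to 255.7 CPM), and of 6 hepatocyte markers 1 was called lower (74750 to 112100 CPM against 82010 to 114700 CPM), and their part in the members' values was not tested. All comparisons with Q20 share the Q20 libraries.

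**Figure D2:**
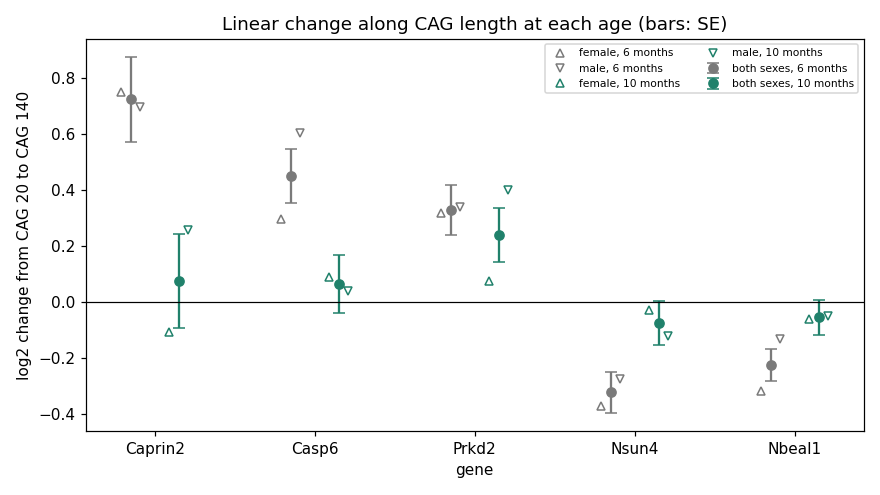
Linear change from CAG 20 to CAG 140 (log2, vertical axis) of each gene at 6 months (grey) and 10 months (green). Filled points with bars give the value over both sexes ± SE, and open triangles give females (up) and males (down). The 6-month values, which chose the genes, run from -0.32 to 0.72 and the 10-month values from -0.08 to 0.24.

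By sex, the 10-month linear change called no member in females (697 genes called, 4.32%), in males (0 genes called, 0%) or in the difference between the sexes (87 genes called, 0.54%). In males 856 genes had an unadjusted p under 0.05 in edgeR, Prkd2 among them (0.40 ± 0.15, unadjusted p = 0.00755, adjusted p = 0.77). DESeq2 called 2 genes in males and no member. In females Prkd2 changed by 0.08 ± 0.12 (adjusted p = 0.80). The male minus female difference of 0.32 ± 0.19 did not pass (adjusted p = 0.56), so the sexes are not shown to differ.

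Against wild types the members differed in pattern at 6 months. Q140 exceeded wild types by 0.66 ± 0.14 for Caprin2 and 0.39 ± 0.09 for Casp6, and Q92 by 0.43 ± 0.14 and 0.23 ± 0.09, while Q20 and Q50 lay within 0.12 of wild types for both. These are differences of means, and the ranges of Q92 and Q140 overlapped those of wild types in each sex. Nsun4 was lower than wild types in Q140 (-0.26 ± 0.07) and less so in Q92 (-0.11 ± 0.07). For Prkd2, Q20 differed by -0.19 ± 0.10 from wild types of its own housing, and Q140 by 0.19 ± 0.08 from both housings. Against wild types housed with Q20 alone, the Q140 value of Prkd2 was 0.26 ± 0.09. For Nbeal1, Q20 differed by 0.19 ± 0.06 from wild types of its own housing, and Q140 by -0.11 ± 0.05 from both housings. Against wild types housed with Q20 alone, the Q140 value of Nbeal1 was -0.09 ± 0.06. These values share the 6-month libraries that chose the members and carry no test.

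**Figure D3:**
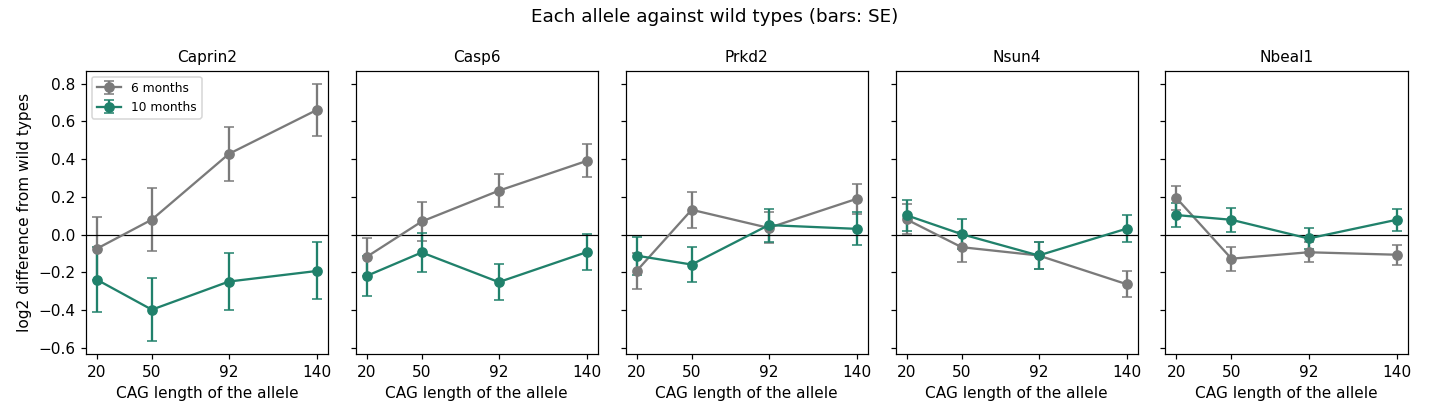
Log2 difference from wild types (vertical axis, ± SE) by CAG length of the allele (horizontal axis) at 6 months (grey) and 10 months (green), 1 panel per gene. Q20 and Q50 are set against wild types of their own housing, Q92 and Q140 against both housings. Caprin2 runs from -0.07 to 0.66 along the alleles at 6 months and lies between -0.40 and -0.19 at 10 months.

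At 10 months no member was called between any allele and wild types, by edgeR or by DESeq2, and the unadjusted p was under 0.05 for Casp6 in Q20 and Q92 and for Caprin2 in Q50. Q140 against wild types called 3 genes (0.0186%), Q92 called 6 (0.0372%), Q20 called 1 (0.0062%) and Q50 called 2 (0.0124%). In the same order, 957, 1230, 1921 and 373 genes had an unadjusted p under 0.05. For Caprin2 all 4 alleles lay below wild types: Q20 by -0.24 ± 0.17, Q50 by -0.40 ± 0.17 (unadjusted p = 0.0194, adjusted p = 1), Q92 by -0.25 ± 0.15 and Q140 by -0.19 ± 0.15. For Casp6 the fitted values over both sexes were -0.22 ± 0.11, -0.09 ± 0.10, -0.25 ± 0.10 and -0.09 ± 0.09 in the same order. The sexes lay on opposite sides for Q140, with means of 36.1 CPM in females against 31.8 CPM in wild-type females, and 15.7 CPM in males against 20.2 CPM in wild-type males. Q50 had 34.1 CPM in females and 16.5 CPM in males, and this difference between the sexes was not tested. By edgeR's quasi-likelihood test the adjusted p was 0.41 for Q20 and 0.48 for Q92. The values of Q92 and Q140 share their wild types, and those of Q20 and Q50 take theirs from the same libraries.

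The other members lay close to wild types at 10 months. Prkd2 in Q20 differed by -0.11 ± 0.10, Q50 by -0.16 ± 0.09, Q92 by 0.05 ± 0.09 and Q140 by 0.03 ± 0.09. Against wild types housed with Q50 alone, the Q92 and Q140 values of Prkd2 changed sign (-0.05 and -0.07). Nsun4 differed by 0.10 ± 0.08, 0.00 ± 0.08, -0.11 ± 0.07 and 0.03 ± 0.07, and Nbeal1 by 0.10 ± 0.07, 0.08 ± 0.06, -0.02 ± 0.06 and 0.08 ± 0.06 in the same order of alleles. The 95% interval for Q140 was -0.49 to 0.11 for Caprin2 and -0.28 to 0.10 for Casp6. The summed level of the 8 brain markers ran from 12.1 to 143.9 CPM in Q140 and from 11.7 to 26.6 CPM in Q20 at 10 months. With the library at 143.9 CPM left out, no member was called either.

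Within wild types, which had no part in the choice, 2 members differed between the ages. Caprin2 rose by 0.58 ± 0.12 from 6 to 10 months (adjusted p = 0.00032) and Nbeal1 fell by 0.19 ± 0.04 (adjusted p = 0.0016), in a contrast that called 2443 genes (15.1%). Wild-type females had 2.31 to 4.94 CPM of Caprin2 at 6 months (median 3.18) and 3.78 to 6.20 CPM at 10 months (median 5.17). Wild-type males had 0.976 to 1.62 CPM (median 1.23) and 1.30 to 2.81 CPM (median 1.67). The ranges overlap in both sexes while the means moved the same way. Wild-type females had 26.5 to 34.4 CPM of Nbeal1 at 6 months (median 31.9) and 20.3 to 27.4 CPM at 10 months (median 24.4), and males 26.7 to 32.3 CPM (median 29.7) and 26.5 to 31.9 CPM (median 29.1), so the female ranges overlapped little and the male ranges nearly in full.

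Casp6 (0.18 ± 0.07, adjusted p = 0.075), Nsun4 (-0.14 ± 0.06, adjusted p = 0.077) and Prkd2 (0.02 ± 0.07) did not pass for age. Casp6 passed without replicate 1 of the 6-month females (0.213), replicate 2 of the 10-month females (0.209) or replicate 3 of the 6-month males (0.205) housed with Q20, or replicate 1 of the 10-month males housed with Q50 (0.212). Nsun4 passed without any of 5 libraries housed with Q20: female replicate 1 (-0.162) and male replicate 3 (-0.163) at 6 months, and female replicate 4 (-0.171) and male replicates 2 (-0.157) and 3 (-0.167) at 10 months. Library numbers in the labels differ between the ages, so age and library series cannot be told apart. With the sequencing lane as a covariate within each age, a fit that compares the ages at 1 lane each, Caprin2 rose by 0.88 ± 0.28 (adjusted p = 0.047) and Nbeal1 did not pass (-0.28 ± 0.10, adjusted p = 0.083). The summed level of 6 Kupffer cell markers ran from 134.3 to 437.1 CPM at 6 and from 63.7 to 494.7 CPM at 10 months in wild types, and 1 of the 6 fell. Of 6 hepatocyte markers 2 fell with age. Their summed level was 69820 to 124700 CPM at 6 months (median 87040) and 62880 to 116200 CPM at 10 months (median 96790). All 4 B cell markers had an unadjusted p under 0.05 with age and none was called, at a median of 0.70 in log2 (summed level 0.982 to 7.54 CPM at 6 and 0.996 to 38.2 CPM at 10 months). The part of these markers in the members' age differences was not tested.

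All 5 members differed between wild-type females and males. Caprin2 was lower in wild-type males than females by -1.41 ± 0.12 (adjusted p = 3.96e-17), with 5.06 CPM in females and 1.87 CPM in males at 10 months, and Casp6 by -0.60 ± 0.07 (adjusted p = 9.54e-11). Prkd2 was lower in males by -0.21 ± 0.07 (adjusted p = 0.0076), Nsun4 higher by 0.21 ± 0.06 (adjusted p = 0.0017) and Nbeal1 higher by 0.11 ± 0.04 (adjusted p = 0.044). The contrast called 7100 genes (44%). The 3 members that were higher with longer repeats at 6 months were those higher in females, and the 2 that were lower were those higher in males, as fitted over both ages. At 6 months alone the wild-type means of Nbeal1 were 30.98 CPM in females and 29.83 CPM in males.

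On the FPKM scale with a pseudocount of 0.1, the median of all genes in this contrast moved to -0.14, and Nsun4 (0.05) and Nbeal1 (-0.05, opposite in sign) no longer passed. Relative to that median they were at 0.20 and 0.10, and Caprin2, Casp6 and Prkd2 at -1.12, -0.61 and -0.21. Nbeal1 also did not pass without any of 14 single libraries of the 32, with values from 0.088 to 0.106. Housed with Q20 these were female replicates 1 and 2 and male replicates 1 and 4 at 6 months, and female replicates 1 and 3 and male replicates 2 and 3 at 10 months. Housed with Q50 they were female replicate 3 and male replicates 2 and 3 at 6 months, and female replicates 3 and 4 and male replicate 1 at 10 months. Markers of other cells moved with sex: all 6 Kupffer cell markers, all 5 T and NK cell markers and all 4 B cell markers were lower in males. The summed Kupffer markers ran from 210.9 to 494.7 CPM in females and from 63.7 to 355.4 CPM in males, the T and NK markers from 2.17 to 8.98 and from 0.703 to 3.17 CPM, and the B cell markers from 2.49 to 38.2 and from 0.982 to 6.11 CPM. Their part in the sex difference of the members was not tested.

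**Figure D4:**
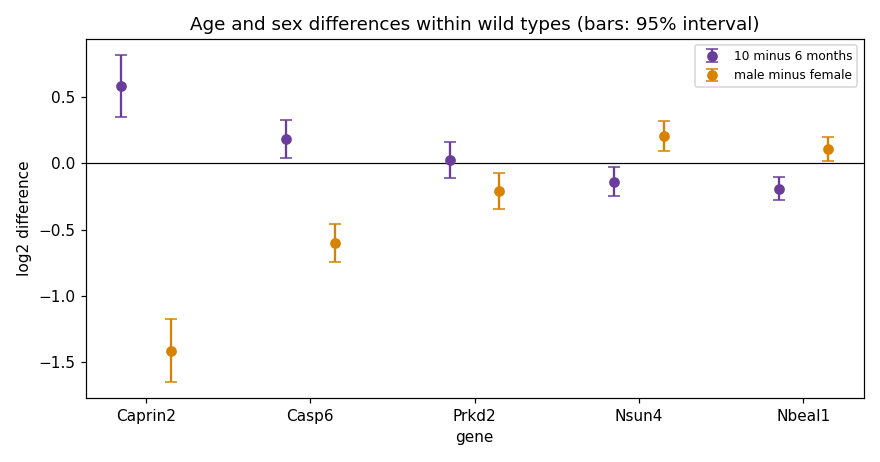
Log2 differences within wild types (vertical axis) by age (10 minus 6 months, purple) and sex (male minus female, orange) for each gene, with 95% intervals. Caprin2 has the largest of both among the 5 genes, 0.58 for age and -1.41 for sex.

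The sex difference of Caprin2 was present in every genotype and age. The female mean was 2.60 to 3.67 times the male mean, and no male library reached the lowest female library of its genotype and age. For Casp6 the ratio of means ran from 1.15 in Q140 at 6 months to 2.31 in Q140 at 10 months, and the sexes overlapped in Q140 and in wild types at 6 months. The Nbeal1 sex difference was -0.05 ± 0.06 at 6 and 0.27 ± 0.06 at 10 months in wild types. The change of 0.32 ± 0.09 between the ages did not pass (adjusted p = 0.12, 23 genes called, 0.143%), though it did when either of 2 libraries was left out: replicate 1 of the females housed with Q20 (0.35, adjusted p = 0.0475) or replicate 3 of the females housed with Q50 (0.36, adjusted p = 0.0482), both of 6 months. Housing with Q50 rather than Q20 called 13 genes (0.0806%) and no member over both ages, 3 genes (0.0186%) and no member at 6 months, and 307 genes (1.9%) and no member at 10 months. Prkd2 came nearest over both ages (0.18 ± 0.07, unadjusted p = 0.00997, adjusted p = 0.30), and had 0.21 ± 0.10 at 10 months (adjusted p = 0.24). At 10 months more wild-type female libraries lacked an index in their label when housed with Q50 than with Q20. The part of this in the housing differences at 10 months was not tested.

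The members varied together to some extent. Across the 93 libraries, which share ages, sexes and genotypes, Pearson's r of log2 CPM was 0.83 for Caprin2 and Casp6, 0.68 for Nsun4 and Nbeal1 and -0.71 for Caprin2 and Nsun4. Within groups, after subtracting each group's mean, these were 0.20, 0.49 and -0.44. The genes most like Caprin2 over the 93 libraries were Cc2d2a (r = 0.91), Txndc16 (0.91) and Hamp2 (0.90), a hepcidin gene. Those most like Casp6 were Vldlr (0.86), the very-low-density lipoprotein receptor, Agtr1a (0.84), the angiotensin receptor, and Zkscan17 (0.84). Prkd2 was most like Pcif1 (0.71), Trp53i11 (0.70) and Atp8b2 (0.69). Nsun4 was most like Rbbp4 (0.84), Eif2s2 (0.82) and Gclm (0.81), and Nbeal1 most like Osbpl8 (0.75), Slc30a9 (0.74) and Chuk (0.74). Within groups Cc2d2a still reached 0.72 with Caprin2 and Rbbp4 0.76 with Nsun4.

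Among 16 genes of caprins and RNA granules none passed along CAG length (2 at an unadjusted p under 0.05, and none by DESeq2), with a median of -0.05 beside -0.001 for all genes, of which 1821 had an unadjusted p under 0.05. Caprin1, the best known caprin, was nearest (-0.26 ± 0.09, adjusted p = 0.21), followed by Stau1 (-0.10 ± 0.04, adjusted p = 0.34), a double-stranded RNA binding protein, and the granule protein G3bp2 (-0.18 ± 0.09, adjusted p = 0.49). None of the 28 Wnt receptors and targets measured passed (2 at an unadjusted p under 0.05, none by DESeq2, median -0.003). Oat, a pericentral liver enzyme, had -0.45 ± 0.19, Ctnnb1, the gene of beta-catenin, -0.16 ± 0.07, and the receptor-removing ligase Rnf43 0.30 ± 0.15 (adjusted p = 0.34, 0.37 and 0.45).

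None of the 30 other caspase and apoptosis genes passed along CAG length at 10 months (7 at an unadjusted p under 0.05, none by DESeq2, median 0.04). Birc3, an inhibitor of apoptosis, had 0.27 ± 0.09 (adjusted p = 0.17), Bcl2l11, which encodes the killer protein Bim, 0.47 ± 0.17 (adjusted p = 0.24), and the death receptor Fas -0.26 ± 0.10 (adjusted p = 0.31). None of the 25 kinase C and D genes and their neighbours passed (4 at an unadjusted p under 0.05, none by DESeq2, median 0.06), among them the oxysterol binding protein Osbp (-0.26 ± 0.10), the diacylglycerol kinase Dgka (-0.24 ± 0.10) and Prkcz (0.20 ± 0.09), an atypical kinase C. None of the 33 genes of mitochondrial ribosome assembly passed (2 at an unadjusted p under 0.05, none by DESeq2, median -0.05), with Rbfa (0.23 ± 0.08), a factor of the small subunit, the subunit protein Mrps12 (0.24 ± 0.11) and Mrm2 (-0.18 ± 0.10), a methyltransferase of the large ribosomal RNA, nearest.

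None of the 8 other BEACH domain genes passed (1 at an unadjusted p under 0.05, none by DESeq2, median 0.02), where Nbea had 0.41 ± 0.17, Wdfy4 0.40 ± 0.23 and Nbeal2 -0.17 ± 0.14. Of 12 genes of the SREBP2 pathway 1 fell, by edgeR and by DESeq2, namely Insig2, which holds the SREBP escort protein in the endoplasmic reticulum (-0.66 ± 0.16, adjusted p = 0.047). In that contrast edgeR called no gene, Insig2 included, without the libraries lacking an index or without Q140 male replicate 3 or Q20 female replicate 4. Mbtps2, a protease that releases SREBP from the membrane, had -0.09 ± 0.08 (adjusted p = 0.73). The share called among all genes was 0.329%.

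Within wild types more genes of these lists passed for sex than for age. Of the Wnt genes 3 were higher and 15 lower in males (median -0.25), including Rnf43 (-0.71 ± 0.11, adjusted p = 1.26e-07). Of the mitochondrial ribosome genes 10 were higher and 3 lower, of the apoptosis genes 5 and 8, of the kinase genes 4 and 8, of the caprin and granule genes 5 and 2, of the BEACH genes 1 and 1 and of the SREBP2 genes 1 and 4. These shares are read against the 44% of all genes called for sex. For age, 4 apoptosis genes were higher and 3 lower at 10 months, 6 and 2 mitochondrial ribosome genes, 1 and 3 caprin and granule genes, 0 and 3 Wnt genes, 1 and 0 kinase genes, 0 and 0 BEACH genes and 1 and 2 SREBP2 genes, beside 15.1% of all genes.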

How the data were processed

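Liver RNA was sequenced from 93 samples. The authors deposited a table of estimated counts and a table of FPKM values per gene. The estimated counts are not all whole: 26.0% of the values above 0 were not, at a tolerance of 0.001. CASAVA 1.8.2 is named in the submitters' processing notes, and the aligner, counter and genome build are not given in the sources used here. Members and gene lists were chosen with earlier results of these data known.

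Counts were rounded. Genes passing filterByExpr (minimum count 10, total 15) numbered 16126 of 39179, and TMM factors ran from 0.847 to 1.156. edgeR 4.0.16 (R 4.3.3) fitted 24 group means by quasi-likelihood, and p-values were Benjamini-Hochberg adjusted over all genes within a contrast, with a threshold of 0.05. Contrasts averaged the sexes. The linear contrast gives the change from CAG 20 to 140. Total counts had a median of 36089384. Alternatives used DESeq2 1.42.0, limma 3.58.1 on log2(FPKM + 0.1) or log2(FPKM + 1), other filters, covariates and left-out libraries. The steps were tested on simulated data. The contrast of Q50 and Q20 and the wild-type sex difference at 10 minus 6 months were added after seeing the values. No 2 libraries were identical, and replicate pairs differed beyond counting noise.

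Genes named are the members, per member the 3 most correlated genes, per list the 3 with the smallest p along CAG length at 10 months, and those beside the choosing thresholds. One gene that this rule names is not reported here. Abhd1 was named after its values were seen.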

Additional observations from a re-analysis of the deposited data

Results flagged for a closer look

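In the Q140 males of 6 months, Nbeal1 had 27.83 CPM in replicate 2, apart from the other 3 libraries at 30.8 to 30.9 CPM. In the wild-type females of 6 months housed with Q50, Nbeal1 had 26.5 CPM in replicate 3, apart from the other 3 libraries at 32.2 to 32.9 CPM. These were 2 of 105 sets of 4 libraries examined, and chance alone sets apart about 1 in 20.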

How the results depend on the processing

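Values are log2 differences. No member was called along CAG length, between any allele and wild types, or between Q92 or Q140 and Q20 at 10 months under any alternative or without any single library. Of 3285 alternative values, 3185 were counted as unchanged. For tested contrasts unchanged means the same direction and side of the threshold. For the 6-month values and the difference between the ages, given as description, it means a shift smaller than the SD within groups. The side of the threshold does not enter that label. At 6 months the linear change passed in 3 of 11 alternatives for Caprin2 and for Casp6, and in 15 of 32 single-library omissions for each. Q140 against Q20 at 6 months passed in 6 of 11 alternatives for Prkd2, 5 for Nsun4 and 4 for Nbeal1. Of 16 single-library omissions it passed in 4, 4 and 5 in the same order. The cause of the changes below was not tested. The count of genes called along CAG length at 10 months (53) was 120 by DESeq2, 19 with no filter and 2 with the L number as covariate. It was 0 without the libraries lacking an index, 112 without the 5 libraries that stand apart, and 0 to 80 without single libraries. At 10 months it was 0 without Q140 male replicate 3 or Q20 female replicate 4, 4 without Q20 male replicate 2, 6 without Q140 female replicate 4 or Q140 male replicate 2, and 80 without Q140 female replicate 3. It was 20 without Q20 female or male replicate 3, 23 without Q50 female replicate 2, 24 without Q92 male replicate 3, 26 without Q20 male replicate 1, 28 without Q20 female replicate 1 and 29 without Q92 female replicate 2.

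On log2(FPKM + 0.1), with and without a filter, the 10-month linear change was 0.01 for Nsun4 and 0.039 for Nbeal1, Casp6 in Q92 against Q20 was 0.029, and Q140 against Q20 was 0.078 for Caprin2, 0.041 for Nsun4 and 0.061 for Nbeal1. The wild-type sex difference there was 0.054 for Nsun4 and -0.045 for Nbeal1. On log2(FPKM + 1) the same 8 values were 0.009, 0.027, 0.024, 0.022, 0.037, 0.042, 0.048 and -0.033. Against wild types housed with Q50 alone, Q92 differed by -0.054 (Prkd2) and 0.003 (Nbeal1) and Q140 by -0.073 (Prkd2).

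With the L number as covariate, Caprin2 changed by -0.073 along CAG length at 10 months. Prkd2 then differed by -0.007 in Q140 against wild types and by -0.03 for age. Nbeal1 did not pass there for age (-0.285) or sex (0.081). With no filter Nbeal1 did not pass for sex (0.1). With a separate fit per age Caprin2 in Q140 against Q20 was 0.001. Without libraries lacking an index, Casp6 was at -0.069 along CAG length, Q140 against Q20 was 0.113 (Caprin2), -0.011 (Casp6) and 0.009 (Nbeal1), Q92 against wild types -0.025 (Prkd2) and 0.053 (Nbeal1), Q140 against wild types -0.131 (Prkd2), and the female linear change of Prkd2 -0.066. Without the 5 libraries that stand apart, Caprin2 in Q140 against Q20 was 0.033.

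Without single libraries, the 10-month linear change ran from -0.007 to 0.117 for Caprin2, and for Prkd2 in females from -0.047 to 0.169. Q140 against Q20 ran from -0.099 to 0.039 for Caprin2, and Q92 against Q20 from -0.235 to 0.061 for Caprin2 and from -0.113 to 0.078 for Casp6. Against wild types, Q140 ran from -0.03 to 0.081 for Prkd2 and from -0.002 to 0.073 for Nsun4, Q92 from -0.02 to 0.115 for Prkd2 and from -0.064 to 0.029 for Nbeal1, and Q50 from -0.017 to 0.034 for Nsun4. For age, Casp6 ran from 0.15 to 0.213 and passed without any of 4 libraries, Nsun4 from -0.171 to -0.106 and passed without any of 5, and Prkd2 from -0.009 to 0.052. For sex Nbeal1 ran from 0.088 to 0.122.

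Replicate numbers were not treated as pairs (median correlation of deviations 0.008 for same-numbered and -0.003 for other pairs). The correlation was over 0.1 in 20.3% of same-numbered and 14.5% of other pairs. These values cannot show whether samples are paired in part of the groups. With a replicate block the 10-month linear change was 0.08 for Caprin2, 0.07 for Casp6, 0.24 for Prkd2, -0.07 for Nsun4 and -0.05 for Nbeal1, with 47 genes called and no member call changed.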
